A study of Oryctolagus cuniculus with 3 samples.

Results

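A group of 78 coding sequences stood far higher in the back skin of a black Rex rabbit than in the skin of both its white and its chinchilla sibling. They were selected on their RPKM values among 15558 coding sequences with reads in at least 1 library. RPKM is the number of reads per kilobase of coding length, scaled to the library's reads assigned to coding sequences. A coding sequence was taken when log2(RPKM + 1) in black skin was at least 2 above that in white skin and at least 2 above that in chinchilla skin, with at least 1 RPKM in black skin. On this scale a difference of 2 is 4-fold in RPKM + 1. This held for 0.642% of the 12145 sequences that reached 1 RPKM in black skin. Taken singly, the black level was that far above white for 0.887% of 12401 sequences compared and that far above chinchilla for 0.895% of 12516. The black levels chose the members, so every difference between black and the other skins is a description and not a test.

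The 3 rabbits were full siblings from 1 litter, kept alike to an age of 42 days, the time of their first moult. Rex rabbits are a domestic breed with a short velvety coat. There was 1 animal and 1 library for each coat, black, white and chinchilla, which is a banded grey coat, and no further genotype or treatment is named for any of them. A piece of back skin of 1 cm2 was frozen from each animal, total RNA was extracted, and mRNA selected with oligo(dT) beads was sequenced. With 1 animal per coat colour, coat and animal cannot be told apart and no p-value is given. Reads assigned to coding sequences numbered 16.2 M (M for mega) for black, 14.8 M for white and 15.0 M for chinchilla skin.

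Skin is a mixture of tissues. The epidermis is built of keratinocytes, the dermis of fibroblasts and their collagen, and the hair follicles grow and rest in cycles that are set off anew at a moult. Melanocytes in the follicle make the pigment that colours the hair. Below the dermis lie fat and, in rabbits and most furred mammals, a thin sheet of striated muscle called the panniculus carnosus. The labels do not say how deep the pieces were cut. In bulk skin, fewer cells of a type and less RNA per cell cannot be told apart.

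The deposited lists name coding sequences by Ensembl protein identifiers and do not pair them with gene symbols. The RefSeq gene table at hand has 38822 entries, 0 of them with an Ensembl identifier, so the members have no gene names and marker genes of skin cell types could not be looked up. Whether the members share a tissue of origin was therefore not tested with markers. They are described below by coding length, level, covered share and the ratio between the chinchilla and white skins. Only the pair that stood farthest above both other skins is given by identifier.

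As a group, the members took 193156 reads in black skin, 7553 in white skin and 12223 in chinchilla skin. That was 1.19% of the assigned reads in black skin (exact 95% Clopper-Pearson interval 1.18 to 1.19%). In white skin their share was 0.0509% (0.0498 to 0.0521%), and in chinchilla skin it was 0.0815% (0.0801 to 0.0829%). These intervals cover counting error only, since there was 1 library per coat. They also take reads as independent molecules, which reads without a molecular identifier need not be. Summed over the members, black skin was 23.3-fold above white (22.8 to 23.9) and 14.6-fold above chinchilla (14.3 to 14.9).

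The rule sets a floor under the black level, since at least 3 RPKM are needed to pass even with no reads in both other skins. The members' RPKM in black skin ran from 4.72 to 611 with a median of 20.1, where the 12145 coding sequences that reached 1 RPKM there had a median of 21.2 RPKM. In white skin they ran from 0 to 13.5 RPKM with a median of 0.80, where the median of those 12145 was 19.1 RPKM. In chinchilla skin they ran from 0 to 55.9 RPKM with a median of 1.36, against 20.2 RPKM. Below 1 RPKM lay 46 of the 78 members in white skin and 31 in chinchilla skin. Of those 12145, 508 and 402 lay below 1 RPKM there, and the rule itself favours low levels in both skins. The median member had 2.52% of its black level in white skin and 6.06% in chinchilla skin.

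**Figure D1:**
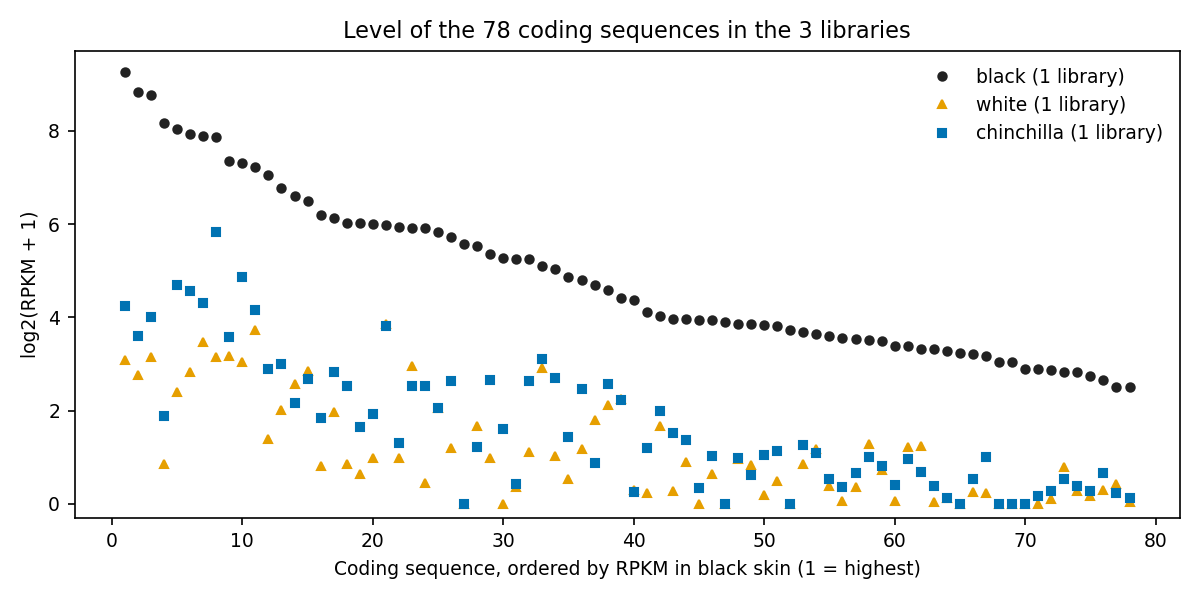
Level of each of the 78 coding sequences, as log2(RPKM + 1), in the black (circles), white (triangles) and chinchilla (squares) libraries, 1 library each, ordered from the highest to the lowest RPKM in black skin. The black points run from 611 down to 4.72 RPKM, and by the rule of choice every one lies at least 2 units above both other points; the chinchilla point lies above the white point for 55 members.

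In log2(RPKM + 1), the largest separation from both other skins was that of ENSOCUP00000017571, a coding sequence of 5838 bases. The black library had 27301 reads of it (288 RPKM), the white 69 (0.797 RPKM) and the chinchilla 237 (2.71 RPKM). The black level was 361-fold the white (95% counting interval 285 to 464) and 106-fold the chinchilla (93.6 to 121). Its log2 differences in RPKM + 1 were 7.33 and 6.28, and after removal of the trend of these differences with coding length they were 6.71 and 5.72. With a pseudocount of 0.1 they were 8.33 and 6.68, and with 5 they were 5.66 and 5.25. Chinchilla and white skin were both low but unlike, since chinchilla had 3.40 times the white level (2.59 to 4.51). Among members with reads in chinchilla skin, the highest black to chinchilla ratio without a pseudocount was that of a member of 1185 bases. It had 717 reads in black skin, 5 in white and 6 in chinchilla skin. Its black level was 131-fold the white (55.8 to 404) and 110-fold the chinchilla (50.5 to 302).

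ENSOCUP00000011883 came next in log2(RPKM + 1), and it is also the shortest member, with 225 bases. It had 170 reads (46.5 RPKM) in black skin and no read in white or chinchilla skin. A count of 0 allows an expectation of about 3 reads, which at this length is 0.899 RPKM for white and 0.889 RPKM for chinchilla skin. Against that limit black skin was at least 51.7-fold higher than white and at least 52.3-fold higher than chinchilla. These bounds take the black reads as they were counted. With their counting error included, the exact interval begins at 41.6-fold for white and at 42.1-fold for chinchilla. Some members had intervals that begin higher for both skins, as at 58.9-fold and 56.6-fold for the one of 10734 bases. The log2 difference of 5.57 to either skin depends on the pseudocount, and it was 8.86 with 0.1 and 3.37 with 5 in place of 1. Its place next after ENSOCUP00000017571 depends on the pseudocount too.

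The 10 members with the highest black RPKM were 486 to 5838 bases long. The first was 1614 bases long and stood at 611 RPKM in black, at 7.48 in white and at 18 in chinchilla skin, so that black was 81.7-fold above white and 33.9-fold above chinchilla. Next came one of 1134 bases at 453 RPKM in black, at 5.77 in white and at 11.2 in chinchilla skin. One of 2019 bases reached 434, 7.88 and 15.2 RPKM in these libraries. All of these were about 2 times as high in chinchilla as in white skin, with chinchilla to white ratios of 2.41, 1.94 and 1.92.

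After the 5838-base member, the next by black level, came 4 coding sequences of 501 to 606 bases. The one of 579 bases stood at 261 RPKM in black, at 4.31 in white and at 24.8 in chinchilla skin. That of 504 bases reached 242, 6.16 and 22.8 RPKM in these libraries. The member of 606 bases stood at 237 RPKM in black, at 10.1 in white and at 18.7 in chinchilla skin. Set apart by its high chinchilla level was the one of 501 bases, at 232 RPKM in black, at 7.94 in white and at 55.9 in chinchilla skin, only 4.16-fold below black (3.74 to 4.63). White skin held the same sequence 29.3-fold below black (22.6 to 38.6).

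The last 2 of the 10 with the highest black RPKM were 1137 and 486 bases long. The longer stood at 163 RPKM in black, at 8.01 in white and at 10.9 in chinchilla skin. The shorter stood at 158 RPKM in black, at 7.22 in white and at 28.3 in chinchilla skin. In chinchilla skin the shorter was thus the higher of the pair, and in black skin they were nearly level. Together the 10 took 40.8% of the members' reads in black skin, 22.0% in chinchilla and 13.3% in white skin.

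A second set of members stood out by length. Of the 78, 14 had 4500 bases or more, which is 17.9% of the members, while 4.76% of the 12145 were that long. Of the 578 coding sequences in that class, 2.42% were members, against 0.638% of those of 1500 to under 4500 bases, 0.433% of those of 500 to under 1500 bases and 0.798% of those under 500 bases. The median member was 1604 bases long, and that of the 12145 was 1317 bases. The black library was also higher for long coding sequences in general. Over all those of 4500 bases and more, the median log2 difference was 0.61 to white and 0.57 to chinchilla skin, and for those under 500 bases it was -0.30 to either. With this trend removed, 74 coding sequences met the rule, 67 of them among the 78. The shares by length class were not recomputed with the trend removed.

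**Figure D2:**
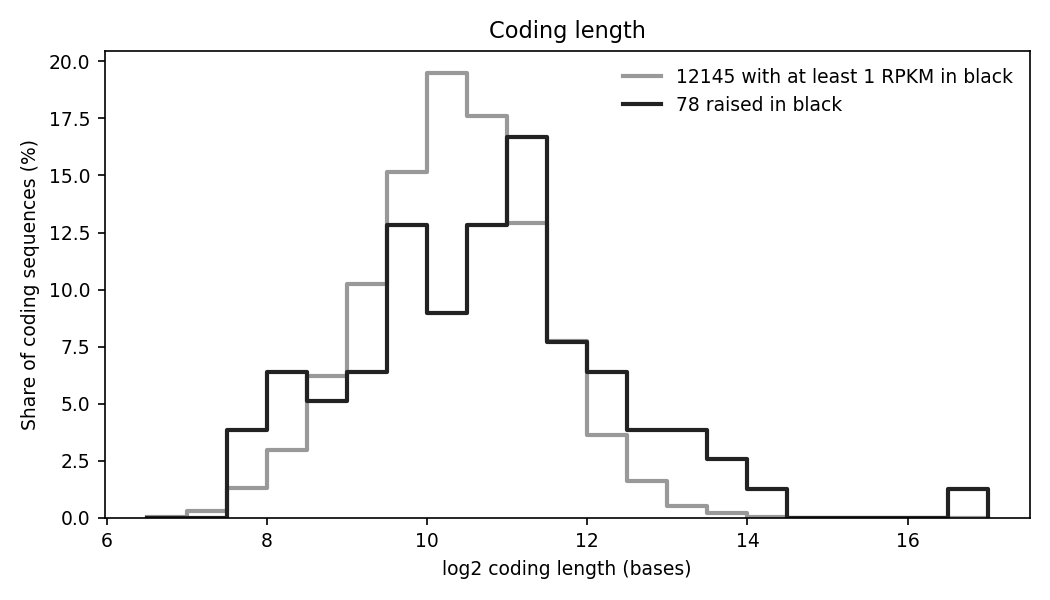
Distribution of coding length (log2 of bases, in steps of 0.5) as the share of coding sequences, for the 78 members (dark line) and for the 12145 coding sequences that reached 1 RPKM in black skin (grey line). A larger share of the members lies to the right, where 17.9% of them (14) have 4500 bases or more, against 4.76% of the 12145. The single step at the far right of the dark line is the member of 93396 bases, which the grey line also includes.

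The longest member, of 93396 bases, is also the longest coding sequence of the whole series, and 1 of the other members, of 20730 bases, is the third longest. For the member of 93396 bases the black library had 14415 reads, the white 55 and the chinchilla 448, or 9.50 RPKM, 0.0397 RPKM and 0.320 RPKM. Its black level was 239-fold the white (184 to 318) and 29.7-fold the chinchilla (27.0 to 32.7), although the log2 differences in RPKM + 1 were only 3.34 and 2.99, because the pseudocount exceeds its level in both other skins. The black library had 5470 reads of the one of 20730 bases, the white 56 and the chinchilla 400, which is 16.2 RPKM, 0.182 RPKM and 1.29 RPKM. Both were low in white skin and several times higher in chinchilla skin, with ratios of 8.05 (6.08 to 10.9) and 7.06 (5.33 to 9.52).

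Other giants among the members differed from these. The one of 15762 bases stood at 33.4 RPKM in black, at 6.53 in white and at 7.60 in chinchilla skin, and it was the member nearest to the threshold. One of 15048 bases reached 14.3, 0.560 and 1.03 RPKM in these libraries. Nearly absent from both other skins was one of 10734 bases, with 1520 reads in black skin against 14 in white and 15 in chinchilla skin. Its chinchilla to white ratio was 1.06, with an interval from 0.477 to 2.37.

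Among the members were 3 of nearly the same length, 5838, 5835 and 5805 bases, which were singled out after their values were seen. The first is ENSOCUP00000017571, described above. That of 5835 bases stood at 59.8 RPKM in black, at 0.370 in white and at 4.74 in chinchilla skin, and its chinchilla to white ratio of 12.8 (8.94 to 19.0) was the highest of all members with reads in every library. The one of 5805 bases stood at 108 RPKM in black, at 3.02 in white and at 7.03 in chinchilla skin, a ratio of 2.33. Equal length says nothing of shared sequence, and because the authors counted unique reads only, close copies in the genome may be undercounted.

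The covered share, the part of the coding length touched by reads, was high in black skin for most members. Its median was 98.3%, against 98.4% over the 12145, and 65 of the 78 members were covered to at least 90%. Other coding sequences within a factor of 1.25 of a member's black RPKM gave it a matched median. Of the members, 38 lay above and 40 below their matched median, with a median difference of -0.12 percentage points. The members were thus covered much like others of their level.

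More than 10 percentage points below their matched median were 11 of the 78 members, or 14.1%, where 9.37% of 9885 other coding sequences within the members' range of black RPKM lay as far below theirs. Among the members, the longest one had the largest gap. Reads touched 33.9% of its 93396 bases in black skin, where 1197 other coding sequences of similar RPKM had a median of 97.6% and 0.0835% of them were covered less. In chinchilla skin 6.45% of it was touched and in white skin 3.21%. The member of 20730 bases was covered to 76.8% against a matched median of 98.8%, and that of 15048 bases to 87.3% against 98.5%. The other 8 had 333 to 3513 bases and covered shares of 75.7 to 89.3%. For these 11, between 0.0835% and 11.4% of the matched coding sequences were covered less.

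**Figure D3:**
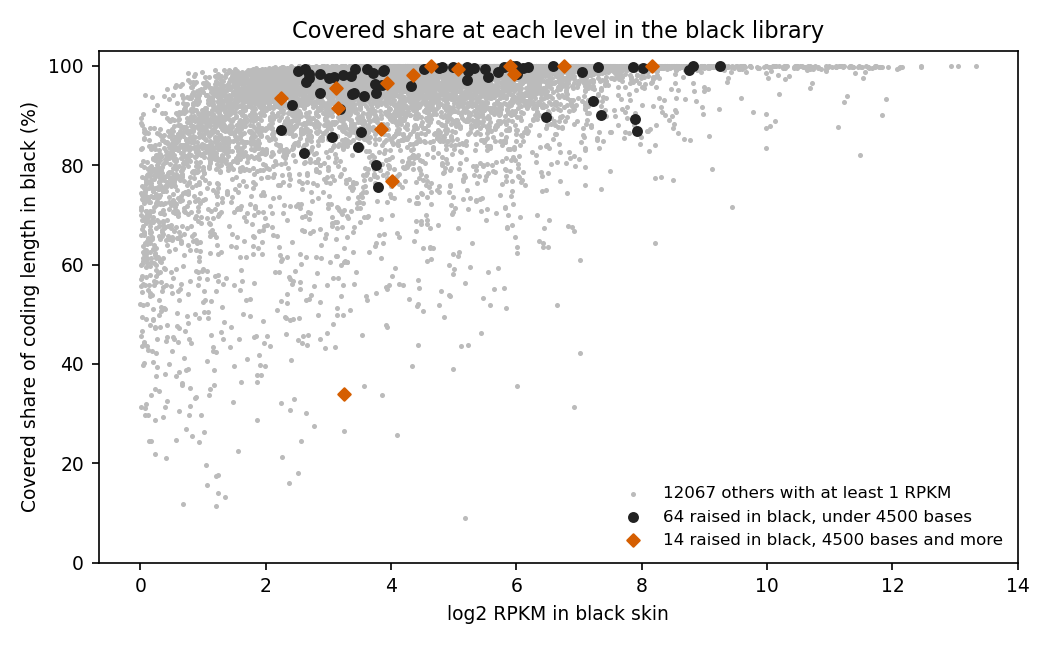
Covered share of the coding length in black skin (%) against log2 RPKM in black skin, for 12067 other coding sequences (grey), 64 members under 4500 bases (black circles) and 14 members of 4500 bases or more (orange diamonds). Most members lie near 100%, and the lowest diamond is the member of 93396 bases at 33.9%.

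In white and chinchilla skin the members rested on few reads, and their covered shares were lower, with medians of 55.5% in white and 79.6% in chinchilla skin. Members with 50 to 200 reads in white skin numbered 20 and were covered to a median of 86.4% at a median length of 2580 bases. The 2553 other coding sequences with as many reads had 94.3% at 1194 bases. In chinchilla skin the 16 such members had 93.1% at 1349 bases and the 2577 others 93.9% at 1200 bases. The lengths differ more between members and others in white than in chinchilla skin, and a longer sequence is covered less by the same reads. Whether length accounts for the lower covered share was not tested.

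Chinchilla against white skin is the comparison that the rule did not use, although it kept both levels low. It is the gap between the 2 differences that the rule did use, so it too is described without a test. The members were higher in chinchilla skin more often than in white. Their RPKM was higher in chinchilla for 55 members, higher in white for 16 and 0 in both for 7. Over the 68 members with reads in all libraries, the chinchilla to white ratio had a median of 1.93 and ran from 0.335 to 12.8, with quartiles of 1.06 and 3.84. Over all 13893 coding sequences with reads in all libraries, the median was 1.04, with quartiles of 0.890 and 1.24. By that median these too were more often higher in chinchilla than in white skin, and their share was not counted. In log2(RPKM + 1) the median difference over all 78 was 0.33, against 0.04 over all coding sequences.

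By counting intervals, the ratio lay above 1 for 39 members and below 1 for 5, and it could not be told from 1 for 34. The 34 include the 7 members without reads in both libraries, which have no ratio. In the whole series 24.9% of the 15558 coding sequences had an interval above 1 and 15.9% one below 1. At 2-fold in RPKM + 1, 18 of the 50 members that reached 1 RPKM in one of them were higher in chinchilla and 0 were lower, where 1.78% and 1.06% of 12310 coding sequences were. The other 28 members were below 1 RPKM in both libraries. Other coding sequences at the members' low level give a comparison. Of 2847 others with a mean of 0.311 to 3.61 RPKM over white and chinchilla skin, 19.2% had an interval above 1 and 8.64% one below 1. Of the 38 members at that level these were 52.6% and 7.89%. The others were matched on level only, not on length or read number, and the width of an interval depends on the reads.

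All 13 members with at least 100 RPKM in black skin had an interval above 1. Their median level was 237 RPKM in black skin, 7.22 RPKM in white skin and 16.8 RPKM in chinchilla skin, and the median ratio of chinchilla to white was 2.41. Of the 46 members with 10 to 100 RPKM in black skin, 21 had an interval above 1, 4 below 1 and 21 on both sides of it. Of the 19 under 10 RPKM, these numbers were 5, 1 and 13. Over all 15558 coding sequences, 24.9% had an interval above 1 and 15.9% one below 1. The shares of all coding sequences at each of these black levels were not computed. Lower members have fewer reads and wider intervals, and the median ratios of those with reads in both skins, 1.73 and 2.05, were still above 1 in both groups.

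**Figure D4:**
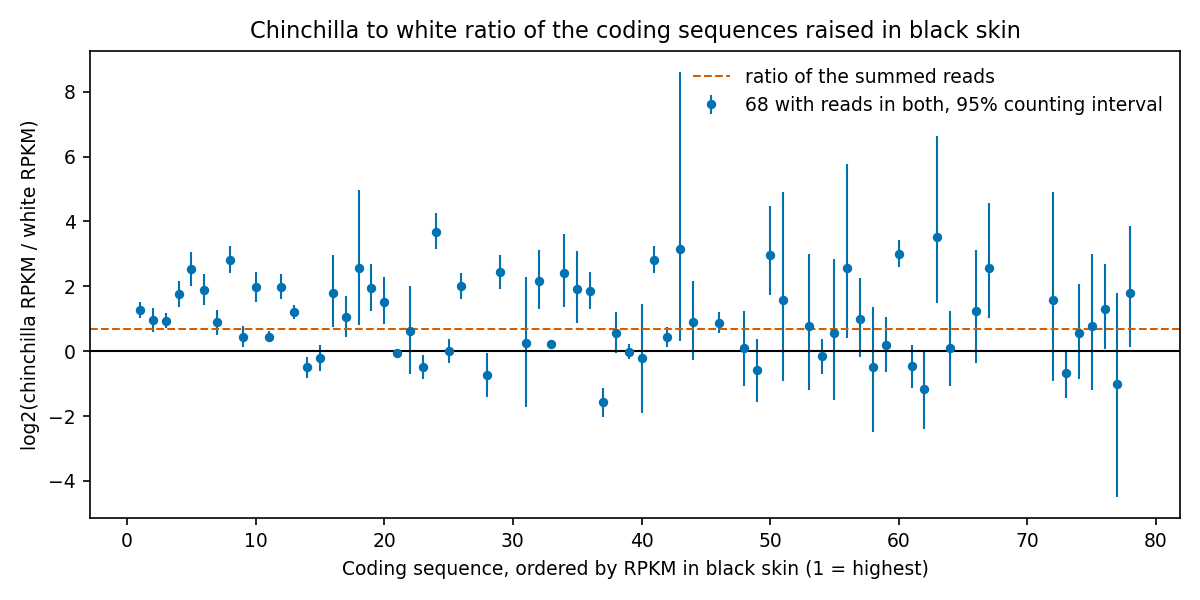
Chinchilla to white RPKM ratio (log2) of the 68 members with reads in both libraries, with 95% counting intervals as bars, ordered by RPKM in black skin. The solid line is a ratio of 1 and the dashed line the ratio of the summed reads, 1.60; the 13 most abundant members all lie above the solid line, and points further right scatter on both sides with wider bars.

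The ratio differed between members by more than counting error. Summed over all members, chinchilla skin had 1.60 times the white level (1.55 to 1.65). Over the 527 coding sequences at least 2-fold above both other skins in black, it was 0.966, on the other side of 1. The intervals of 36 members held the members' summed value, 27 lay wholly above it and 15 wholly below. The 36 include the 7 members without reads in both libraries, whose unbounded intervals hold any value. Spread beyond counting error was not particular to the members. Of all 15558 coding sequences, 24.9% had an interval above 1 and 15.9% one below 1. The summed value leans on the 2 members with the most reads in white skin, which were 9873 and 15762 bases long. Together they took 46.4% of the members' reads in white skin, 30.5% in chinchilla and 9.58% in black skin. Without that pair the summed ratio was 2.07 (1.997 to 2.15). The pair was picked on its white reads, so leaving it out tends to raise the ratio by construction. The one of 9873 bases stood at 62.1 RPKM in black, at 13.5 in white and at 13.0 in chinchilla skin, so it was equally high in both other skins.

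The 39 members with an interval above 1 had median levels of 52.0 RPKM in black skin, 0.980 RPKM in white skin and 4.74 RPKM in chinchilla skin, at a median length of 2019 bases. The 34 whose interval held 1 had 11.3 RPKM in black skin, 0.319 RPKM in white skin and 0.448 RPKM in chinchilla skin, at 1185 bases. The split itself used the white and chinchilla reads, and more abundant or longer members have more reads and so narrower intervals, so nothing is read from these differences.

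Of the 16 members with a higher RPKM in white than in chinchilla skin, 5 had a counting interval below 1. The one of 4809 bases stood at 24.97 RPKM in black, at 2.48 in white and at 0.832 in chinchilla skin, and its ratio of 0.335 (0.246 to 0.451) was the lowest. One of 1080 bases reached 9.06, 1.37 and 0.617 RPKM in these libraries, on 22 reads in white and 10 in chinchilla skin. That of 1566 bases stood at 45.3 RPKM in black, at 2.20 in white and at 1.32 in chinchilla skin. The remaining pair, of 2571 and 1512 bases, had ratios of 0.710 and 0.709. All 5 kept 2.91 to 8.03% of their black level in chinchilla skin and 4.84 to 15.2% in white skin.

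No read was found in white skin for 10 members, and 7 of these had none in chinchilla skin either. Of the 12145 coding sequences that reached 1 RPKM in black skin, 26 had no read in white and 30 none in chinchilla skin. The members are among the 12145, and the rule itself favours sequences without reads in both other skins. Besides ENSOCUP00000011883, the members without reads in both skins were 237, 333, 381, 834, 936 and 1284 bases long. They had 6.47 to 13.9 RPKM in black skin on 28 to 166 reads. Each was covered to at least 94.49% in black skin except that of 333 bases, at 75.7%. With 3 reads as the limit, black skin was at least 8.52-fold above white for the one of 237 bases and at least 50.5-fold for that of 834 bases, with the others between. With the counting error of the black reads included, the exact intervals of these begin at 6.48-fold and 40.6-fold. The 3 with reads in chinchilla skin alone were 684, 4410 and 1128 bases long, with 21, 17 and 2 reads there and 418, 1032 and 118 reads in black skin. For the one of 4410 bases black skin was at least 314-fold above white by the same limit, with an exact interval from 255-fold up, and 56.1-fold above chinchilla (34.8 to 96.6).

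The third shortest member, of 252 bases, had 263 reads (64.3 RPKM) in black, only 3 (0.803 RPKM) in white skin and 18 (4.76 RPKM) in the chinchilla skin. Its black to white ratio was 80.0, with an interval from 27.1 to 391. A length of 333 bases was shared by 4 members and by 24 coding sequences of the series. These 4 lay close together in black skin, at 10.4, 11.8, 13.1 and 13.9 RPKM, and between 0 and 1.42 RPKM in both other skins. They were noticed after their values were seen.

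The edge of the rule is gradual. Just inside it were members of 15762, 768 and 2328 bases, whose smaller log2 difference was 2.001, 2.008 and 2.012. Just outside were coding sequences of 5712, 1473 and 1224 bases, at 1.989, 1.979 and 1.971. The one of 5712 bases stood at 31.6 RPKM in black, at 5.20 in white and at 7.21 in chinchilla skin, levels like those of the 15762-base member. With a pseudocount of 0.1 in place of 1 the rule took 155 coding sequences, and with 5 it took 33. Well beyond the edge, 38 of the 78 members were at least 8-fold and 13 at least 16-fold above both other skins in RPKM + 1. For comparison, 4 coding sequences met the mirrored rule in chinchilla skin and 1 in white skin, without the 1 RPKM minimum.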

How the data were processed

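The members and their descriptions were chosen with earlier results of these data known. The authors' deposited lists hold, per the file headers, the count of unique reads per Ensembl rabbit protein identifier, its length, the covered share in percent and the RPKM. Identifiers missing from a list were taken as 0. Each length divides by 3, which marks it as a coding length with no untranslated region. The deposited RPKM values were recomputed from the deposited counts, lengths and header totals, with a largest relative difference of 1.6e-14. Aligner, counting program, genome build and strand handling were not given in the sources used here.

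Log2 differences used a pseudocount of 1, which understates the fold of low sequences. Ratios are of RPKM without a pseudocount, with an exact 95% Clopper-Pearson interval of the conditional share of reads, for counting error only. No test across animals was possible. Selection and intervals were tried on simulated independent counts with planted differences. Such counts hold counting error only, so they cannot speak to variation between animals. By rule, the 2 members farthest above both other skins in log2(RPKM + 1) were named by identifier. By length were described the 10 highest in black skin, the 5 longest, the 3 shortest, the 3 highest and 3 lowest in chinchilla to white ratio, those without reads, and those at the edge. Alternatives were other pseudocounts, floors, scalings, thresholds, a read minimum, counting intervals and removal of the length trend (lowess). No sequences or coordinates are given, since none could be matched. The tools were SciPy 1.17.1, statsmodels 0.14.6, pandas 2.3.3 and NumPy 2.4.6 in Python 3.11.15, with matplotlib 3.10.9 for the figures.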

Additional observations from a re-analysis of the deposited data

How the results depend on the processing

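The number of members depended on pseudocount and threshold. It was 155 with a pseudocount of 0.1, all 78 included, and 33 with 5, all of them among the 78. It was 527 at a log2 difference of 1 and 38 at 3. By construction these settings take in or drop low and near-threshold sequences. The other settings gave 64 to 100. Membership changed too, since the 100 with both counting intervals beyond 4-fold held 73 of the 78. The median log2 difference of chinchilla to white stayed above 0, at 0.16 to 0.43, except at a log2 threshold of 1, where it was -0.0037 over 527 coding sequences. The summed ratio, 1.60, turned to 0.966 there too, so the 527 as a whole were not higher in chinchilla skin. It was 1.43 with a pseudocount of 0.1, 1.98 with 5, 2.06 at a log2 threshold of 3, 1.48 with both counting intervals beyond 4-fold, 1.52 scaled by the median ratio, 1.66 scaled without the 50 sequences of most reads and 2.07 with the length trend removed. Added after seeing the data, it was 1.94 without sequences of 4500 bases and more and 1.44 without the 10 highest in black skin. Setting counts of 0 to 3 reads kept all 78. No paired analysis was possible because each coat colour has 1 library, and no library could be left out. Depth limits the ratio of the 11 members with fewer than 10 reads in white and chinchilla skin together.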
